A study of Mus musculus with 18 samples.

Results

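The cell cycle and DNA replication genes followed here are a fixed list of 40 genes among the 47643 genes counted in each library, found by their symbols in GENCODE vM21. The list was set by name and not by a rule on measured values, but with earlier results of these data known. By role it holds 4 genes of the G1 phase (Cdk4 and the D cyclins), 5 genes of the entry into S phase (the E cyclins, Ccna2, Cdk2 and E2f1), 11 genes that license replication origins and unwind DNA, 6 genes of nucleotide supply and DNA handling, and 14 genes of mitosis. RNA was sequenced from spot cultures of dorsal root ganglia taken from e13.5 embryos of CD-1 mice (eDRG spot), grown with 5-fluorodeoxyuridine (FDU), an agent that kills dividing cells. The control was uninjured and collected at DIV7, and in the other cultures the axons were cut with a blade and RNA was collected 1, 3, 8, 16 or 24 h post injury (HPI), with 3 libraries in each of the 6 groups. All 18 libraries, controls included, came from FDU-treated cultures, so the level without FDU was not analysed here. No source states whether libraries of a group came from separate cultures, so the tests measure the spread between libraries, which may be technical. For the injured cultures, DIV7 is the collection day in the labels but the day of injury in the methods.

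A cell that divides passes from G1 into S phase, where it copies its DNA, and then through G2 into mitosis. D cyclins with Cdk4 begin this by loosening the hold of the retinoblastoma protein on E2F factors, which switch on the E cyclins, the licensing factors and the enzymes of DNA synthesis. Cdc6 and Cdt1 load the ring-shaped Mcm helicase onto origins, and Cdc45 and the GINS complex set it running. In late G2, Foxm1 and control of promoters through so-called CHR and CCAAT elements raise the genes of the spindle, the kinetochore and its checkpoint. Sensory neurons of the dorsal root ganglion have left the cell cycle for good, while glia, fibroblasts and progenitors can still divide. FDU acts after its conversion in the cell by blocking thymidylate synthase, the product of Tyms, and thereby stops DNA synthesis.

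The promoters of 4 members that the results return to are printed first, since the letters by which E2F factors and the G2 machinery are usually recognised stand in them. Each is the 180 bases before the gene start in RefSeq on GRCm38.p6, 5′ to 3′ on the strand of the gene. Capitals mark matches on either strand to the E2F strings TTTCCCGC, TTTCGCGC, TTTGCCGC and TTTGGCGC, to the CHR string TTTGAA and to CCAAT. In Mcm6 and Mcm5 a pair of E2F matches overlaps and forms a single run of capitals.
Mcm6, chr1:128359706-128359885, minus strand: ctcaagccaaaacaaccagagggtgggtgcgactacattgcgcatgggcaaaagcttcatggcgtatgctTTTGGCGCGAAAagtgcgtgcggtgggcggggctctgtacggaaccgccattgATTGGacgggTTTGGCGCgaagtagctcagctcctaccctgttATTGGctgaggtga
Mcm5, chr8:75109329-75109508, plus strand: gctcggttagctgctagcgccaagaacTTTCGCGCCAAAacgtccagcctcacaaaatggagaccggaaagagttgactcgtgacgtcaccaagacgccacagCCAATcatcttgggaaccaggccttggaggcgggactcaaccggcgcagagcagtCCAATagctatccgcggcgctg
Top2a, chr11:99024190-99024369, minus strand: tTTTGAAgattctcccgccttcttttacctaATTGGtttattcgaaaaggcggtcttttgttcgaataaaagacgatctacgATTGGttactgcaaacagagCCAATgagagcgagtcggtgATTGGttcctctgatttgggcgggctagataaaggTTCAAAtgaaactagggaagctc
Bub1b, chr2:118598031-118598210, plus strand: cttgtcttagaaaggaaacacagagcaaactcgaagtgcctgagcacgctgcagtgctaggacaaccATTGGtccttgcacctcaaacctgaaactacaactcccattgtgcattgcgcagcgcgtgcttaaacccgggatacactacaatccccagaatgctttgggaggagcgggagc
The Mcm6 stretch held 3 E2F matches and 2 CCAAT boxes, and the Mcm5 stretch 2 of each. Top2a had no E2F match but 2 CHR strings and 4 CCAAT boxes, and Bub1b had 1 CCAAT box.

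Promoter windows of 300 bases, from 250 before to 50 after the start, were given by RefSeq for 31 of the 40 members, in 33 windows. An E2F string stood in 8 of these windows (24.2%), against 2.26% of all 32851 promoter windows. All but 2 of those 8 windows belonged to the origin licensing group, with Cdc6, Cdt1, Mcm3, Mcm5, Mcm6 and 1 of the pair of Mcm7 windows, and the others to Cdk1 and Cdk2. The CHR string was found in 8 of 12 windows of the mitosis group and in 17.9% of all windows. CCAAT was found in 11 of those 12 windows and in 37.4% of all windows. Of the 9 genes with a window that later rose against control, Cdt1, Mcm6 and Mcm7 carried an E2F string, as did 5 of the 23 windows of the other members. A match is a string of letters and was not tested as a binding site.

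In the uninjured culture the 40 genes ran from well expressed to barely counted. Levels between genes are compared here as RPKM, the counts of a gene per kilobase of its exons, scaled to all counts on genes of the library, as mean ± SD over the 3 control libraries. Cdk4, the kinase of G1, was highest at 12.7 ± 1.09, followed by the D cyclin Ccnd2 at 11.2 ± 4.83 and the replication clamp Pcna at 7.22 ± 0.540. These were the 3 members over an RPKM of 5, and 10 of 40 were over an RPKM of 1. The spread of Ccnd2 reached down past the level of Pcna in 1 library, so the order of Ccnd2 against its neighbours was within the spread, while Pcna lay above the next member in every library. The median RPKM of all 13771 genes tested was 4.33, and 26 of the 29 members tested lay below it.

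By role, the step into S phase was led by E2f1 at 2.38 ± 0.233 and Ccne1 at 2.32 ± 0.730 RPKM, which did not differ beyond their spread. Ccne2 followed at 1.31 ± 0.220, Ccna2, the cyclin of S phase and G2, at 0.325 ± 0.0951, and Cdk2, the kinase that the E and A cyclins drive, at 0.0237 ± 0.00820. Cdk2 had 0 to 5 counts in a library and was at or near the limit of detection of 3 counts throughout. Of the helicase subunits, which the ring holds in equal numbers, Mcm4 had 2.95 ± 0.359 RPKM, Mcm6 2.68 ± 0.261, Mcm2 1.36 ± 0.252, Mcm7 0.920 ± 0.118, Mcm5 0.310 ± 0.0637 and Mcm3 0.161 ± 0.0448. The mRNA of the ring was thus uneven in level per length, with Mcm4 and Mcm6 close to each other and Mcm3 and Mcm5 far below both in every control library. The loading factors had 0.605 ± 0.269 RPKM for Cdt1 and 0.0579 ± 0.0114 for Cdc6, which had 1 to 6 counts in a library.

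Among the genes of nucleotide supply, Rrm1, the large subunit of ribonucleotide reductase, had 1.03 ± 0.185 RPKM and its small subunit Rrm2 0.550 ± 0.0794. Tyms, whose product FDU blocks, had 0.294 ± 0.0354, the thymidine kinase Tk1 0.139 ± 0.0542 and Top2a, a topoisomerase of dividing cells, 0.0618 ± 0.0118. The mitosis group had no member over an RPKM of 1. Aurka, the kinase of spindle poles, came closest at 0.980 ± 0.0867, and the other 13 lay between 0.0573 ± 0.00630 for Cenpa, the histone of centromeres, and 0.295 ± 0.0922 for Cenpe. Mki67, the gene of the proliferation antigen Ki-67, had 0.100 ± 0.0252 RPKM and Cdk1, the kinase of mitosis, 0.108 ± 0.0414.

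**Figure D1:**
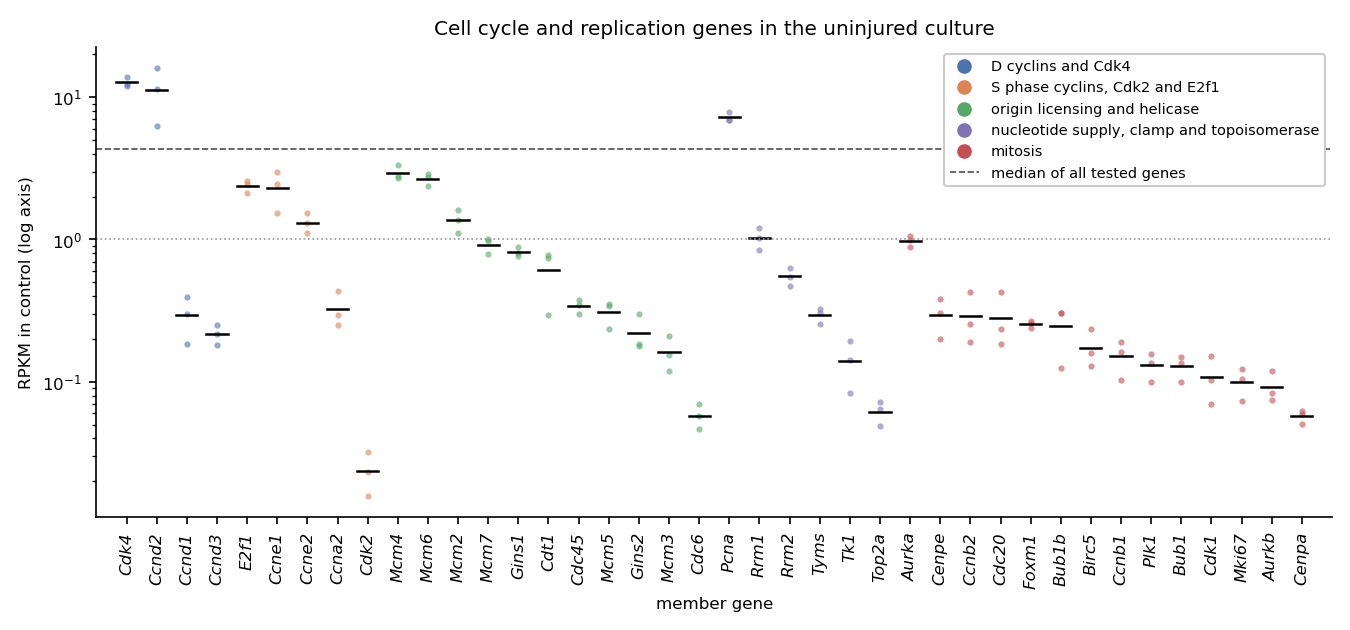
RPKM of the 40 genes in the 3 uninjured control libraries on a log axis, grouped and coloured by role; points are libraries, black bars are means, the dotted line is an RPKM of 1 and the dashed line the median of all tested genes, 4.33. Cdk4, Ccnd2 and Pcna stand above the dashed line and every mitosis gene has a mean below the dotted line.

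All 40 genes had at least 1 count in some library, and 31 had over 3 counts in all 18. A gene was tested if it exceeded 1 CPM, its counts scaled to all counts on genes of the library, in 3 or more libraries, and 29 members did. The other 11 are Cdk2, Mcm3, Cdc6, Tk1, Cdk1, Ccnb2, Plk1, Aurkb, Bub1, Cenpa and Cdc20, and 7 of them are genes of mitosis. Some of the 29 passed this filter in few libraries, Gins2 in 3 and Top2a and Birc5 in 4 each, so counts over the members tested describe the better expressed part of the list. Libraries held 9478891 to 23082327 counts on genes, at which 3 counts came to between 0.130 and 0.317 CPM. Intervals and limits of this kind cover counting error only.

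The libraries were those of sensory neurons by their markers. The 6 neuronal markers (Tubb3, Avil, Isl1, Prph, Snap25 and Pou4f1) summed to between 6938 and 8790.2 CPM. Of these, Tubb3 fell, with log2 fold changes of -0.40 ± 0.05 at 16 HPI and -0.37 ± 0.05 at 24 HPI (adjusted p = 1.09e-05 and 6.79e-05 by edgeR), whereas Isl1 and Pou4f1 rose at 24 HPI by 0.26 ± 0.06 and 0.20 ± 0.05 (adjusted p = 0.00747 and 0.00740). The 9 markers of satellite glia, Schwann cells and neural crest other than S100b, which neurons also express, summed to between 1.16 and 8.56 CPM, with 8 of these 9 markers, Sox10 and Sox2 among them, at 0 in at least 1 library. S100b itself fell, with log2 fold changes of -0.33 ± 0.07 at 16 HPI and -0.26 ± 0.07 at 24 HPI (adjusted p = 0.00177 and 0.0152). The 6 fibroblast markers summed to between 1.21 and 19.5 CPM, the 5 myeloid markers to between 3.49 and 7.51 CPM and the 4 endothelial markers to at most 1.46 CPM. Libraries of replicate number 3 had the most glial marker counts, with a mean of 4.53 CPM against 2.16 and 1.46 CPM for numbers 1 and 2. The part of these marker changes in those of the members was not tested. In bulk RNA, fewer cells of a type and less RNA per cell cannot be told apart. Residual rRNA counts stood apart in 3 libraries, at 11996 CPM in 16 HPI replicate 1, 4740 CPM in 16 HPI replicate 2 and 3340 CPM in 3 HPI replicate 3, against at most 345 CPM in the others.

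Across the time course, the rises of members that passed came late and most were small. None of the 29 tested passed at 1 or 3 HPI, 1 rose at 8 HPI, 9 at 16 HPI and 4 at 24 HPI, and none fell at any time point. In all, 12 members rose at some time, and Mcm6 and Ccne2 rose at both 16 and 24 HPI. The rises lay between 1.19-fold and 1.98-fold, with the exception of Top2a at 24 HPI at 2.72-fold. Passing means an adjusted p under 0.05 in edgeR's quasi-likelihood test over all 13771 genes, with the replicate number as a block, and every comparison used the same 3 control libraries.

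**Figure D2:**
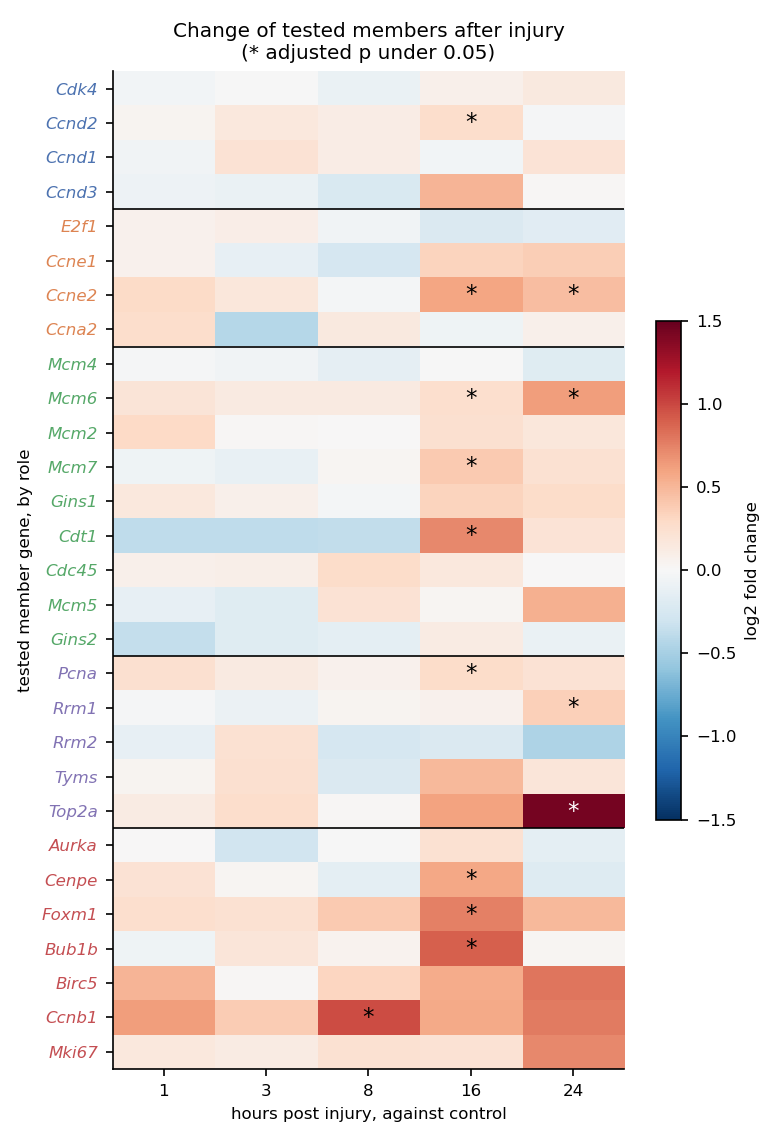
Log2 fold change against control of the 29 tested members (rows, grouped and coloured by role) at 1, 3, 8, 16 and 24 HPI; red is higher and blue lower than control, and asterisks mark an adjusted p under 0.05. All asterisks sit on rises, 9 of them at 16 HPI, and the deepest colour is Top2a at 24 HPI with 1.44.

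At 1 HPI the edgeR test passed 0 of 29 members, where 0.276% of all genes passed in either direction. An unadjusted p under 0.05 was found for 4 of the 29 members and for 1768 of all 13771 genes. These 4 were Ccnb1, Mcm2, Pcna and Mcm6, each higher in 3 of 3 replicates. Their log2 fold changes were 0.62 ± 0.28, 0.30 ± 0.09, 0.24 ± 0.08 and 0.19 ± 0.08. At 16 HPI they were 0.57 ± 0.29, 0.24 ± 0.09, 0.27 ± 0.08 and 0.25 ± 0.08. At 3 HPI the edgeR test passed 0 members as well, where 0.189% of all genes passed. Of the 29 members 0 had an unadjusted p under 0.05, against 1999 of all genes. The DESeq2 Wald test passed 0 at both times. The median log2 fold change of the 29 members was 0.06 at 1 HPI and 0.07 at 3 HPI, and that of all genes was 0.00 at both. At 8 HPI 1 member (3.45%) was higher, where 3.78% of all genes were higher and 3.9% lower, and the median of the members was 0.01.

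At 16 HPI 9 of 29 members (31%) rose, where 10.7% of all genes rose and 11.5% fell. They came from every role: Ccnd2 of the D cyclins, Ccne2 of the E cyclins, Cdt1, Mcm6 and Mcm7 of licensing, the clamp Pcna, and Bub1b, Cenpe and Foxm1 of mitosis. The median log2 fold change of the 29 was 0.27, with 24 above 0, and that of all genes was 0.00. Without the replicate block, 1 member, Ccne2, passed at 16 HPI, and 5.13% of all genes did. The DESeq2 Wald test passed 4 of 29 (Bub1b, Ccnd2, Ccne2 and Pcna), where it passed 18.4% of all genes in either direction. Without the libraries of replicate number 3, 4 of 27 passed (Ccnd2, Cenpe, Mcm2 and Mcm7), where 15.6% of all genes did. In that smaller set of libraries the changes that no longer passed did not all shrink, with log2 fold changes of 0.94 for Bub1b, 0.83 for Cdt1, 0.83 for Foxm1 and 0.31 for Mcm6, and the median of the members was 0.34. With the residual rRNA and mitochondrial genes left out, the same 9 genes as in the full table passed, where 21.4% of all genes did.

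At 24 HPI 4 of 29 members (13.8%) rose, where 5.99% of all genes rose and 9.03% fell. They were Mcm6, Rrm1 and Ccne2, which serve S phase, and Top2a, which also acts as chromosomes separate. Top2a met the filter for testing only with its 24 HPI libraries counted. None of the 7 genes tested of the mitosis group passed. Their median log2 fold change, 0.48 with 5 above 0, was still the highest of the roles, where the others had 0.08 to 0.22. The median of the 29 was 0.20, with 22 above 0. Mcm6 alone passed without the replicate block, where 1.11% of all genes did, and Mcm6 alone passed when 24 HPI replicate 1 was left out, where 10.1% did. Between 16 and 24 HPI, Bub1b and Cenpe fell and Mcm6 rose, where 6.22% of all genes fell and 3.59% rose, and the median of the 29 was -0.07.

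Mcm6, a subunit of the replicative helicase, had the smallest adjusted p of the members against control. It is encoded at chr1:128331590-128359664 on GRCm38. Its level, in the order of replicates 1, 2 and 3 as for all values below, was 13.5, 11.1 and 12.9 CPM in control, 15.3, 14.8 and 12.9 at 1 HPI, 15.1, 12.6 and 13.8 at 3 HPI, 14.7, 13.1 and 13.3 at 8 HPI, 15.8, 14.5 and 15.1 at 16 HPI and 21.2, 19.1 and 18.3 at 24 HPI. Every library at 24 HPI stood above every library of the other groups. Against control Mcm6 rose by 0.63 ± 0.08 on the log2 scale (SE) at 24 HPI, or 1.55-fold, with an adjusted p of 1.62e-05, and in 3 of 3 replicates. This call held in 15 of 15 alternative settings. At 16 HPI the rise was 0.25 ± 0.08 (adjusted p = 0.0274), and it held in 6 of 15. From 16 to 24 HPI Mcm6 rose by a further 0.38 ± 0.08 (adjusted p = 0.00281), which was lost only without the block, of 15 settings. The early time points were also higher in 3 of 3 replicates each, with log2 fold changes of 0.19 ± 0.08, 0.13 ± 0.08 and 0.13 ± 0.08, none of which passed.

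The other subunits of the ring did not pass with it at 24 HPI. Mcm4, the subunit highest per length in control, had 9.74, 12.1 and 9.94 CPM in control, 9.72, 10.6 and 10.98 at 1 HPI, 9.20, 9.92 and 11.3 at 3 HPI, 10.3, 8.12 and 9.68 at 8 HPI, 9.03, 9.77 and 13.0 at 16 HPI and 10.6, 8.43 and 8.89 at 24 HPI. Its groups overlapped throughout, and its log2 fold change at 24 HPI was -0.19 ± 0.13 (adjusted p = 0.376). Mcm2 had 0.17 ± 0.09 (adjusted p = 0.227), Mcm5, whose printed promoter also holds the overlapping E2F strings, 0.53 ± 0.22 (adjusted p = 0.117), and Mcm7 0.23 ± 0.13 (adjusted p = 0.262). Mcm3 fell under the filter with 4 to 29 counts. It had 0.783, 0.582 and 0.450 CPM in control, 0.714, 0.412 and 0.820 at 16 HPI and 1.15, 0.968 and 1.36 at 24 HPI, so its 24 HPI libraries lay above its controls, and it passed at 24 HPI where genes with at least 10 counts in all were tested, with a log2 fold change of 0.97 ± 0.29 (adjusted p = 0.0343). Whether Mcm6 moved differently from the other subunits was not tested.

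Mcm7 rose at 16 HPI. Its values were 3.48, 4.29 and 4.45 CPM in control, 3.24, 3.99 and 4.56 at 1 HPI, 3.96, 3.51 and 3.91 at 3 HPI, 4.05, 4.33 and 4.03 at 8 HPI, 5.06, 6.002 and 5.21 at 16 HPI and 4.56, 5.08 and 4.75 at 24 HPI. The 16 HPI libraries were the highest at 5.06 CPM or more, although 24 HPI replicate 2 reached 5.08. The log2 fold change at 16 HPI was 0.39 ± 0.13 (adjusted p = 0.0366), which held in 5 of 15 settings. About 12.6% of its exon bases are shared with neighbouring genes, and the strand setting of the counting is not given in the sources used here.

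Cdt1, the loader of the helicase, had 0.930, 2.33 and 2.45 CPM in control, 1.202, 1.58 and 1.48 at 1 HPI, 0.963, 1.82 and 1.49 at 3 HPI, 0.570, 1.58 and 2.15 at 8 HPI, 2.34, 3.24 and 3.87 at 16 HPI and 1.96, 2.57 and 2.02 at 24 HPI. Its controls were uneven, with replicate 1 far below the others, and each 16 HPI library was the highest of its replicate number. The log2 fold change at 16 HPI was 0.72 ± 0.23, or 1.65-fold (adjusted p = 0.0285), and it held in 8 of 14 settings. At 1, 3 and 8 HPI Cdt1 had log2 fold changes between -0.38 and -0.37, none passing. The remaining licensing genes did not pass at any time. Cdc45, Gins1 and Gins2 had log2 fold changes between -0.35 and 0.34, and 67.3% of the exon bases of Gins2 are shared with Gse1.

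Of the genes that take a cell into S phase, the E cyclin Ccne2 moved most. Ccne2 had 5.38, 3.85 and 4.55 CPM in control, 5.07, 6.16 and 6.10 at 1 HPI, 4.76, 6.54 and 4.57 at 3 HPI, 3.76, 5.17 and 4.92 at 8 HPI, 5.78, 7.88 and 7.91 at 16 HPI and 6.64, 6.63 and 6.40 at 24 HPI. At 16 and 24 HPI all libraries were above the highest control of 5.38 CPM, which 1, 3 and 8 HPI did not achieve in every library. The rise was 0.59 ± 0.15 on the log2 scale at 16 HPI (1.504-fold, adjusted p = 0.00676) and 0.47 ± 0.15 at 24 HPI (adjusted p = 0.0372), held in 13 and 8 of 15 settings. Its exons share 17.4% of their bases with Ints8. The sister gene Ccne1 had log2 fold changes of 0.34 ± 0.15 and 0.37 ± 0.14 at those times (adjusted p = 0.108 and 0.0878).

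E2f1, the factor that drives S phase genes, had 6.71, 8.14 and 7.69 CPM in control, 8.78, 7.59 and 7.06 at 1 HPI, 7.28, 7.71 and 9.09 at 3 HPI, 7.52, 6.75 and 7.12 at 8 HPI, 5.97, 5.88 and 7.73 at 16 HPI and 6.12, 6.97 and 6.91 at 24 HPI. Control and injured libraries overlapped at every time, and the values of 16 HPI included the lowest. Its log2 fold change was -0.22 ± 0.13 at 16 HPI (adjusted p = 0.251) and -0.17 ± 0.12 at 24 HPI (adjusted p = 0.393), lower in 3 of 3 replicates on the normalised scale each time but not passing. Ccna2 ranged from 0.803 to 1.83 CPM over all libraries and had log2 fold changes between -0.42 and 0.26.

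Among the genes of G1, Ccnd2 carried the largest counts of the list. Ccnd2 had 59.0, 108 and 149.8 CPM in control, 69.8, 107 and 142 at 1 HPI, 72.6, 103 and 179 at 3 HPI, 65.9, 113 and 158 at 8 HPI, 72.1, 146 and 167 at 16 HPI and 56.8, 129 and 125 at 24 HPI. The replicates were far apart in every group, with replicate 1 the lowest in all 6. Within replicate numbers, 16 HPI was above control in all 3, and the log2 fold change was 0.27 ± 0.09 (adjusted p = 0.0423), while the groups overlapped in their raw levels. Without the block its adjusted p was 0.843, and the call held in 9 of 15 settings. At 24 HPI it was back at -0.02 ± 0.09.

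Cdk4, its kinase, had 39.9, 38.6 and 45.3 CPM in control, 39.7, 38.9 and 42.7 at 1 HPI, 39.3, 43.3 and 41.0 at 3 HPI, 34.6, 35.6 and 44.6 at 8 HPI, 40.6, 42.6 and 49.97 at 16 HPI and 42.9, 46.2 and 48.9 at 24 HPI. The lowest library stood at 34.6 CPM, the groups overlapped, and the log2 fold change was 0.08 ± 0.06 at 16 HPI (adjusted p = 0.411) and 0.15 ± 0.06 at 24 HPI (adjusted p = 0.120). Of its exon bases, 19.7% are shared with Tspan31. Ccnd1, the D cyclin induced by growth signals in dividing cells, had 1.42, 0.872 and 1.85 CPM in control, 1.202, 1.67 and 1.09 at 1 HPI, 1.66, 1.26 and 2.09 at 3 HPI, 1.82, 1.58 and 1.26 at 8 HPI, 1.10, 1.35 and 1.70 at 16 HPI and 1.67, 1.26 and 1.98 at 24 HPI. All groups overlapped, and the log2 fold changes against control, between -0.06 and 0.22, did not pass. Ccnd3 had 1.91, 1.60 and 2.20 CPM in control and 2.27, 2.88 and 3.28 at 16 HPI, with no overlap and a log2 fold change of 0.51 ± 0.19 (adjusted p = 0.0640).

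**Figure D3:**
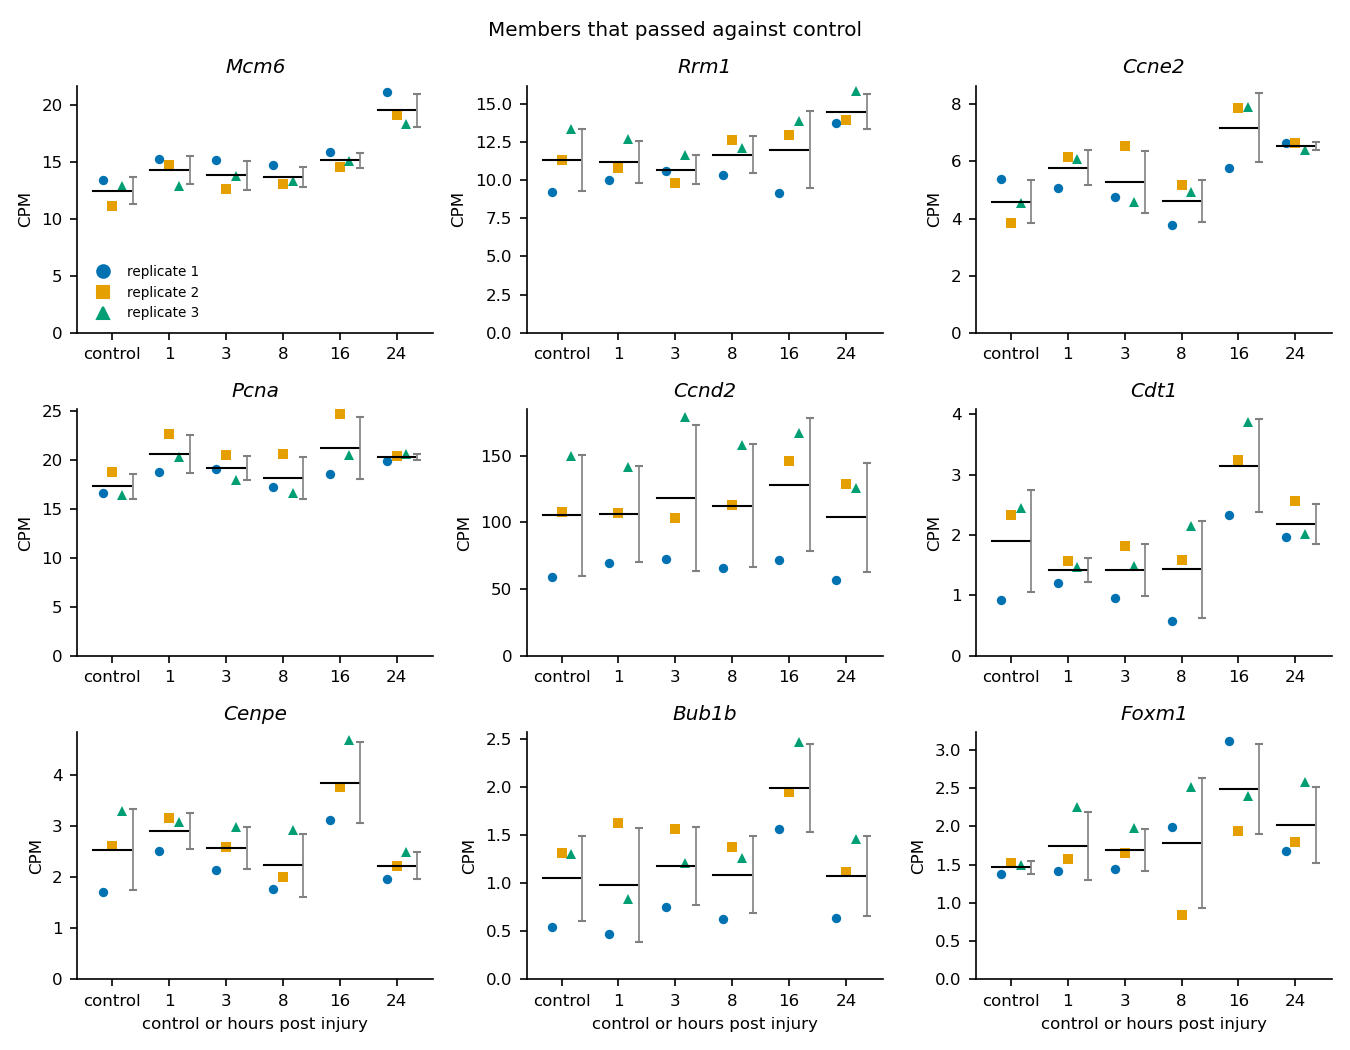
CPM of 9 of the 12 members that rose against control, in control and at 1, 3, 8, 16 and 24 HPI; symbols are libraries by replicate number, black lines are means and grey bars are SD (n = 3). Mcm6 is highest at 24 HPI in all 3 replicates, Cenpe and Bub1b are highest at 16 HPI, and Ccnd2 differs more between replicate numbers than between times.

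Pcna, the clamp that holds polymerases on DNA, had 16.7, 18.8 and 16.5 CPM in control, 18.8, 22.7 and 20.4 at 1 HPI, 19.1, 20.5 and 18.01 at 3 HPI, 17.2, 20.7 and 16.6 at 8 HPI, 18.6, 24.8 and 20.5 at 16 HPI and 19.97, 20.4 and 20.6 at 24 HPI. Injured libraries were above control of the same replicate number at every time. The rise was 0.27 ± 0.08 on the log2 scale at 16 HPI, or 1.21-fold (adjusted p = 0.0164), and held in 11 of 15 settings. At 24 HPI it was 0.22 ± 0.08 (adjusted p = 0.0576). The pseudogene Pcna-ps2 had 34 to 87 counts in a library, where Pcna had 196 to 473, and the split of reads between the pair is uncertain.

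Rrm1 had 9.25, 11.3 and 13.3 CPM in control, 10.03, 10.8 and 12.7 at 1 HPI, 10.6, 9.83 and 11.7 at 3 HPI, 10.3, 12.7 and 12.1 at 8 HPI, 9.16, 13.0 and 13.9 at 16 HPI and 13.7, 13.9 and 15.9 at 24 HPI. All 24 HPI libraries were above all controls, and at 16 HPI replicate 1 was lower than its control. The rise at 24 HPI was 0.35 ± 0.09, or 1.28-fold (adjusted p = 0.0122), and held in 12 of 15 settings. Its partner subunit Rrm2, with 8 to 44 counts, had -0.46 ± 0.27 at 24 HPI (adjusted p = 0.270). Tyms had 1.86, 1.96 and 1.55 CPM in control, 2.14, 1.58 and 1.67 at 1 HPI, 2.52, 1.56 and 2.20 at 3 HPI, 1.88, 0.844 and 1.62 at 8 HPI, 2.40, 2.24 and 2.75 at 16 HPI and 2.31, 1.21 and 2.49 at 24 HPI. Its groups overlapped except at 16 HPI, where all 3 libraries were above all controls, and the log2 fold change there was 0.48 ± 0.22 (adjusted p = 0.127).

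Top2a, which untangles DNA before cell division, was the only one of the 29 tested members to pass with a change over 2-fold. Top2a had 0.441, 0.582 and 0.649 CPM in control, 0.732, 0.542 and 0.450 at 1 HPI, 0.535, 0.390 and 1.05 at 3 HPI, 0.627, 0.738 and 0.419 at 8 HPI, 1.04, 0.471 and 0.996 at 16 HPI and 2.31, 0.726 and 1.51 at 24 HPI. These are low counts, 9, 8 and 13 in control against 40, 15 and 32 at 24 HPI. All 24 HPI libraries were above all controls, but replicate 2 was close to them and to most other libraries. The log2 fold change was 1.44 ± 0.36 (adjusted p = 0.00996), where 0.639% of all genes passed and rose over 2-fold. Of the 4 libraries in which Top2a exceeded 1 CPM, 2 were of 24 HPI, so it entered the test only with the help of the group in which it is high. With no filter on low counts it passed as well (1.45, adjusted p = 7.48e-05 by edgeR). That fit treated the spread of each gene as known, so its p-values are not comparable with those of the main fit. The change fell to 1.06 (adjusted p = 0.102) without 24 HPI replicate 1 and to 1.08 (adjusted p = 0.1002) without control replicate 1.

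Markers of fibroblasts and glia varied between libraries. At 24 HPI the sum of the fibroblast markers was 10.3, 3.83 and 15.6 CPM, so replicate 2, the lowest in Top2a, was also the lowest in these markers, as it was at 16 HPI with 13.4, 4.71 and 9.84 CPM. The highest library in these markers at 24 HPI was replicate 3, however, while Top2a was highest in replicate 1. Over the 6 groups, the library highest in fibroblast markers was also the highest in Top2a in 4 and the lowest in both in 4, and for the glial markers these counts were 2 and 2. For Mki67 they were 3 and 4 with fibroblast and 4 and 3 with glial markers. Cenpe had 4 and 1 with either list, and Ccnb1 had 2 and 1, then 4 and 2. Mcm6, Ccne2 and Bub1b had counts from 1 to 3. With 3 libraries in a group, unrelated values share their highest or lowest library in 1 of 3 groups on average. These counts were not tested. In control the sum of the fibroblast markers was 3.18, 2.54 and 10.04 CPM. Of the list, Dcn, a matrix protein of fibroblasts, rose by 2.07 ± 0.28 at 16 HPI (adjusted p = 1.77e-05) and by 2.22 ± 0.27 at 24 HPI (adjusted p = 1.59e-05), while the other 3 markers tested did not pass. The glial sum was 1.57, 1.16 and 5.54 CPM in control and 1.56, 1.16 and 8.56 at 24 HPI, and its tested markers Sox10 and Cdh19 did not pass against control at any time. Cd68, a gene of macrophages, rose by 0.97 ± 0.25 and 0.93 ± 0.24 at 16 and 24 HPI (adjusted p = 0.00698 and 0.0125). Aif1, the only other myeloid marker tested, did not pass, with 0.25 ± 0.21 and 0.46 ± 0.20 (adjusted p = 0.430 and 0.120 by edgeR). The part of these cells in the changes of Top2a and the other members was not tested.

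Mki67 had 0.734, 1.24 and 1.05 CPM in control, 0.784, 1.18 and 1.35 at 1 HPI, 0.910, 0.996 and 1.32 at 3 HPI, 1.08, 1.90 and 0.785 at 8 HPI, 1.04, 0.941 and 1.52 at 16 HPI and 1.67, 1.21 and 2.02 at 24 HPI. Control and 24 HPI overlapped through 24 HPI replicate 2, and the log2 fold change at 24 HPI was 0.72 ± 0.29 (adjusted p = 0.109). Without that library it was 0.97 (adjusted p = 0.0433). Cdk1 had 0.343, 0.509 and 0.749 CPM in control, 0.261, 0.394 and 0.385 at 1 HPI, 0.214, 0.433 and 0.716 at 3 HPI, 0.285, 0.316 and 0.628 at 8 HPI, 0, 0.647 and 0.644 at 16 HPI and 0.808, 0.533 and 0.517 at 24 HPI, from 0 to 15 counts, and was not tested. Its libraries overlapped with control at every time.

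**Figure D4:**
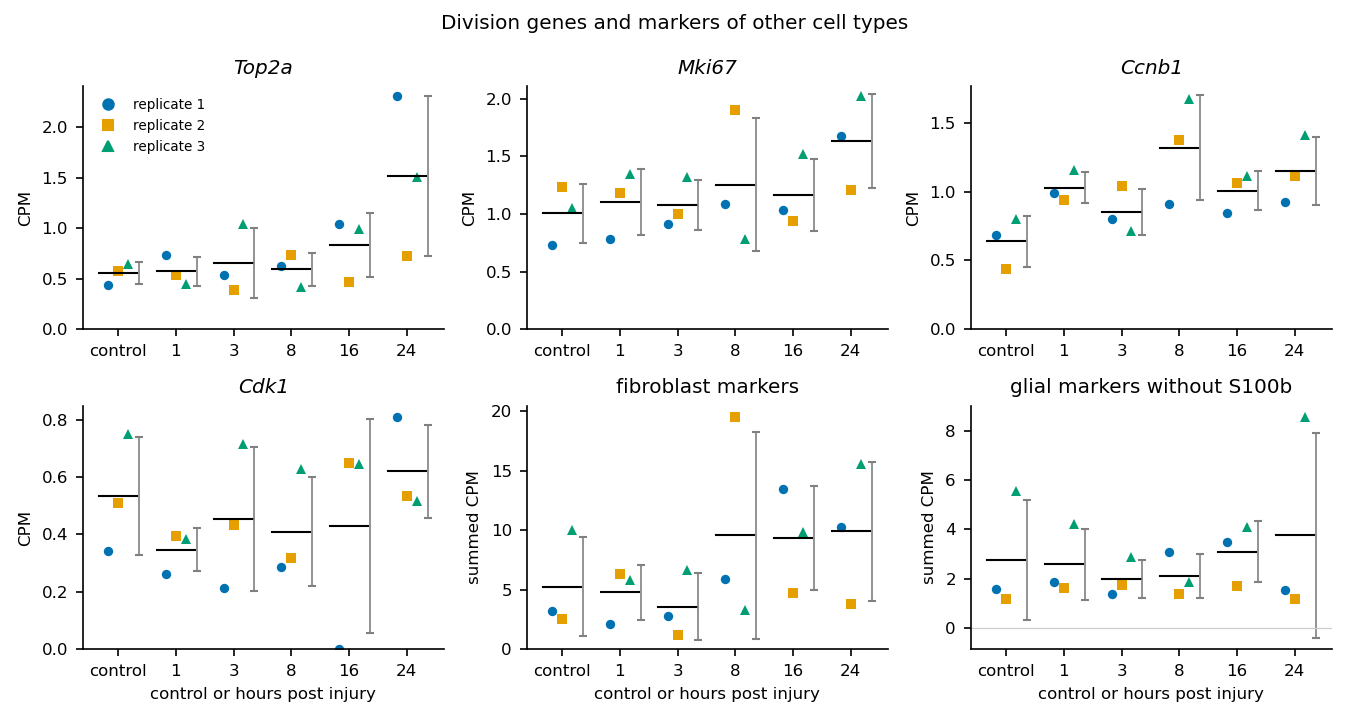
CPM of Top2a, Mki67, Ccnb1 and Cdk1, and summed CPM of the 6 fibroblast markers and of the 9 glial markers without S100b, in control and at 1, 3, 8, 16 and 24 HPI; symbols are libraries by replicate number, lines are means and grey bars SD (n = 3). At 24 HPI the replicate 2 library is the lowest in Top2a, Mki67 and both marker sums, while replicate 1 is the lowest in Ccnb1 and replicate 3 in Cdk1.

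Of the mitosis group, 3 genes rose at 16 HPI and 1 at 8 HPI. Cenpe, a motor of the kinetochore, had 1.71, 2.62 and 3.30 CPM in control, 2.51, 3.15 and 3.08 at 1 HPI, 2.14, 2.60 and 2.97 at 3 HPI, 1.77, 2.004 and 2.93 at 8 HPI, 3.12, 3.77 and 4.69 at 16 HPI and 1.96, 2.23 and 2.49 at 24 HPI. Each 16 HPI library was the highest of its replicate number, although its replicate 1 stayed below control replicate 3. The rise was 0.58 ± 0.15, or 1.496-fold (adjusted p = 0.00841), held in 12 of 15 settings, and from 16 to 24 HPI Cenpe fell, with a log2 fold change of -0.77 ± 0.15 (adjusted p = 0.00242) that held in 13 of 15. At 24 HPI it was at -0.19 ± 0.16 against control.

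Bub1b, a kinase of the spindle checkpoint, also rose at 16 HPI and was lower again at 24 HPI, at lower counts. Bub1b had 0.538, 1.31 and 1.30 CPM in control, 0.470, 1.63 and 0.835 at 1 HPI, 0.749, 1.56 and 1.21 at 3 HPI, 0.627, 1.37 and 1.26 at 8 HPI, 1.56, 1.94 and 2.46 at 16 HPI and 0.635, 1.11 and 1.46 at 24 HPI. All 16 HPI libraries were above all controls, and replicate 1 was low in the other groups. It rose by 0.90 ± 0.26 at 16 HPI, or 1.87-fold (adjusted p = 0.0166), and from 16 to 24 HPI the log2 fold change was -0.87 ± 0.25 (adjusted p = 0.0319), held in 9 of 14 and 7 of 14 settings. Foxm1, the transcription factor of G2 genes, had 1.37, 1.53 and 1.499 CPM in control, 1.41, 1.58 and 2.25 at 1 HPI, 1.44, 1.65 and 1.98 at 3 HPI, 1.995, 0.844 and 2.51 at 8 HPI, 3.12, 1.94 and 2.40 at 16 HPI and 1.67, 1.79 and 2.59 at 24 HPI. All 16 HPI libraries were above the controls, which lay close together. Its rise was 0.76 ± 0.25 (adjusted p = 0.0363), which came to 0.45 (adjusted p = 0.273) without 16 HPI replicate 1.

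Ccnb1, the cyclin that activates Cdk1, was the only member to rise at 8 HPI. Ccnb1 had 0.685, 0.436 and 0.799 CPM in control, 0.993, 0.936 and 1.16 at 1 HPI, 0.803, 1.04 and 0.716 at 3 HPI, 0.912, 1.37 and 1.67 at 8 HPI, 0.844, 1.06 and 1.11 at 16 HPI and 0.923, 1.11 and 1.41 at 24 HPI. The 8 HPI libraries were above all controls, and so were those at 1, 16 and 24 HPI. The rise at 8 HPI was 0.98 ± 0.28, or 1.98-fold (adjusted p = 0.0316), and at 24 HPI the log2 fold change was 0.78 ± 0.27 (adjusted p = 0.0545). The call at 8 HPI held in 6 of 12 settings and did not hold in the fit without the block (adjusted p = 0.1605). Aurka had 2.25, 2.69 and 2.50 CPM in control, 2.04, 2.27 and 3.21 at 1 HPI, 2.46, 1.56 and 2.09 at 3 HPI, 2.34, 2.95 and 2.25 at 8 HPI, 3.18, 2.59 and 2.99 at 16 HPI and 2.02, 1.89 and 2.73 at 24 HPI. Its groups overlapped and no comparison passed.

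The rest of the mitosis group stayed low. Birc5, the gene of survivin, was tested with 6 to 23 counts, and its log2 fold change at 24 HPI was 0.80 ± 0.36 (adjusted p = 0.140). Ccnb2, Plk1, Aurkb, Bub1, Cenpa and Cdc20, which act from the entry into mitosis to its exit, had at most 24 counts in any library and means of 0.271 to 0.558 CPM in control. At 16 HPI their means were 0.380 to 0.840 CPM and at 24 HPI 0.328 to 0.654 CPM. The pseudogene Ccnb2-ps had 14 to 33 counts, more than Ccnb2 itself with 2 to 13, so the counts of Ccnb2 are uncertain.

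Members also differed between replicate numbers, 12 of the 29 tested at an adjusted p under 0.05, where 60.9% of all genes did. Ccnd2 had the smallest p. Its mean over the 6 groups was 66.0 ± 6.76 CPM in number 1, 118 ± 16.5 in number 2 and 153 ± 18.9 in number 3 (SD, n = 6, adjusted p = 7.53e-11 by edgeR). Ccne1 (adjusted p = 0.00185), Bub1b, Cenpe, Cdt1, Rrm1 and Mcm2 were likewise lowest in number 1, whereas Mcm6 (adjusted p = 4.63e-04), Top2a, Tyms and Mcm5 were highest there, and Pcna was highest in number 2. The labels do not say what a replicate number stands for.

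A further list of 59 genes of the pathway, which restrain or serve the same steps, had 48 genes tested. At 1, 3 and 8 HPI edgeR passed 0 of the 48, and the DESeq2 Wald test passed 0. An unadjusted p under 0.05 was found for 3, 6 and 10 of the 48, against 1768, 1999 and 3026 of all 13771 genes. At 16 HPI 8 (16.7%) rose and 1 (2.08%) fell, where 10.7% of all genes rose and 11.5% fell. At 24 HPI 6 (12.5%) rose and 0 fell, where 5.99% of all genes rose and 9.03% fell. DESeq2 passed 5 and 3 at these times, where it passed 18.4% and 12.1% of all genes, and the fit without the block passed 3 and 1, where it passed 5.13% and 1.11%. Of the Cdk inhibitors, Cdkn2d at 48.0 ± 1.40 RPKM, Cdkn1a at 27.8 ± 4.42 and Cdkn1b at 10.9 ± 0.662 were far higher per length in control than most members. The 7 inhibitors listed had a median of 1.22 RPKM in control and reached down to 0.0421.

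In this list, Ccnf and Cdkn2c passed with a change over 2-fold. Ccnf, a cyclin that serves a ubiquitin ligase and binds no Cdk, had 2.01, 2.25 and 2.35 CPM in control, 2.09, 1.97 and 2.50 at 1 HPI, 1.87, 1.60 and 2.64 at 3 HPI, 1.31, 2.004 and 1.15 at 8 HPI, 5.19, 5.53 and 4.74 at 16 HPI and 2.89, 4.26 and 2.59 at 24 HPI. All 16 HPI libraries were above those of every other group, and the rise of 1.196 ± 0.199, or 2.29-fold (adjusted p = 1.62e-04), held in 15 of 15 settings. At 16 HPI 1.18% of all genes passed and rose over 2-fold. Cdkn2c, an inhibitor of Cdk4, had 0.196, 0.509 and 0.549 CPM in control, 0.209, 0.296 and 0.706 at 1 HPI, 0.321, 0.520 and 0.220 at 3 HPI, 0.342, 0.211 and 0.262 at 8 HPI, 1.04, 0.824 and 1.05 at 16 HPI and 0.923, 1.21 and 1.13 at 24 HPI. At 2 to 25 counts, it rose by 1.21 ± 0.39 at 16 HPI (adjusted p = 0.0288) and by 1.39 ± 0.37 at 24 HPI (adjusted p = 0.0134), with all libraries of both times above all controls. It exceeded 1 CPM in 4 libraries, all of 16 or 24 HPI, and so entered the test through the groups in which it is high. The call at 16 HPI held in 7 of 12 settings. Leaving out control replicate 1 gave 0.89 on the log2 scale there, and leaving out 16 HPI replicate 1 gave 0.97, so both fell below 2-fold. The call at 24 HPI held in 9 of 11.

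Cdkn1a, the inhibitor p21, had 80.9, 110.3 and 105 CPM in control, 98.9, 125 and 129.7 at 1 HPI, 85.5, 109 and 171 at 3 HPI, 81.1, 114 and 117 at 8 HPI, 94.4, 158 and 131 at 16 HPI and 85.1, 133 and 107 at 24 HPI. It was above control of the same number in 3 of 3 replicates at 16 HPI, where it rose by 0.34 ± 0.11 on the log2 scale (adjusted p = 0.0394), a call held in 8 of 15 settings. Rb1, which binds E2F factors, had 32.3, 34.4 and 42.1 CPM in control, 32.6, 36.1 and 40.2 at 1 HPI, 30.3, 32.8 and 30.9 at 3 HPI, 33.5, 32.6 and 36.2 at 8 HPI, 33.2, 32.7 and 41.5 at 16 HPI and 35.4, 41.5 and 38.1 at 24 HPI. It did not pass at any time, with log2 fold changes between -0.21 and 0.07. The other genes that rose at 16 HPI were Cdc25a, Dbf4, Wee1, Tfdp2 and Mad2l1, with log2 fold changes from 0.38 to 0.58, and Fzr1, which holds the anaphase complex active in cells at rest, fell, with a log2 fold change of -0.32 ± 0.09 (adjusted p = 0.0137). At 24 HPI Cdc25a, Cdc25b, Cdkn1b, Mnat1 and Kif11 rose, with log2 fold changes from 0.21 to 0.55. Of the 16 genes of origin recognition and the polymerases, 15 were tested and none passed at any time, with a median log2 fold change of 0.01 at 16 HPI and 0.04 at 24 HPI.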

How the data were processed

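Total RNA of the 18 libraries (control and 1, 3, 8, 16 and 24 HPI, replicates 1 to 3 each) was depleted of rRNA and sequenced. The authors deposited raw counts per gene for each library. The labels name FastQC, STAR, HTSeq, DESeq2 and the mm10 build. The methods name cutadapt, STAR, GENCODE and featureCounts, and the files close with entries of the kind htseq-count writes, so the counter is uncertain and its strand setting is not given in the sources used here. Entries of no gene held 25.24 to 33.19% of the counts and were left out, after which 9478891 to 23082327 counts remained per library. Symbols came from GENCODE vM21 for 47224 of the 47643 genes.

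CPM scales the counts of a gene to all counts on genes, and RPKM uses the total exon length. The 13771 genes that exceeded 1 CPM in 3 or more libraries entered the test with edgeR 4.0.16 (TMM, quasi-likelihood, R 4.3.3) in a single fit of group and replicate number, with Benjamini-Hochberg adjustment. Figures and tables were made with Python 3.11.15. Fold changes and their SE come from this fit. The replicate number was kept as a block because the methods correct a batch and because same-numbered libraries deviated together, with r from 0.484 to 0.765 over 45 pairs against -0.577 to -0.0423 over 90 pairs of different numbers. Deviations were taken from the mean of each group, so positive values for same-numbered pairs force negative ones between numbers on average. Members and lists were chosen with earlier results of these data known. A few items, among them 2 markers of the cell type lists, are not reported here. Values in every library are given for members passing against control, the highest member of each role by control RPKM, Mki67, Top2a, Cdk1, Pcna, Tyms and Ccnd1, for pathway genes past 2-fold, and for Cdkn1a and Rb1. Mcm3, Ccnd3, Aif1, Cd68, Dcn, Fzr1, Isl1, Pou4f1, S100b and Tubb3 were named after their values were seen. The fits were tested on simulated data without differences between replicate numbers, so the effect of the block on the calls was not tested there. Alternatives were DESeq2 1.42.0 (size factors and Wald test), other filters, no block, the compared groups alone, and libraries or residual rRNA and mitochondrial genes left out.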

Additional observations from a re-analysis of the deposited data

How the results depend on the processing

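Of the alternatives, leaving out all libraries of replicate number 3 was chosen after seeing the data. The replicate block decided most calls. Without the replicate block 1 member passed at 16 HPI, 1 at 24 HPI, 0 at 8 HPI and 0 between 16 and 24 HPI, where the fit with it passed 9, 4, 1 and 3. Over all genes the fit without the block passed 5.13%, 1.11%, 0.443% and 0.806%, against 22.2%, 15%, 7.68% and 9.82% with it. The DESeq2 Wald test passed 0, 4 and 2 members at 8, 16 and 24 HPI, where it passed 6.25%, 18.4% and 12.1% of all genes. It gave no adjusted p for Ccnb1 at 8 HPI or Top2a at 24 HPI. The count at 8 HPI also went to 0 without the libraries of replicate number 3. It was 0 in the compared groups alone and where genes had to be over 1 CPM in all 18 libraries, since Ccnb1 then fell under the filter and was not tested. Leaving out the libraries of number 3 passed 4 members at 16 HPI and 1 between 16 and 24 HPI, where 15.6% and 5.12% of all genes passed. It gave medians of the members of 0.0848 at 1 HPI and 0.34 at 16 HPI. Leaving out residual rRNA and mitochondrial genes passed 5 members between 16 and 24 HPI, where 9.49% of all genes passed. Leaving out 1 library passed 0 to 1 members at 8 HPI, 2 to 6 at 16 HPI (2 without control replicate 1, 3 without 16 HPI replicate 1), 1 to 6 at 24 HPI (1 if 24 HPI replicate 1 was left out, 2 for control replicate 1, 6 for 24 HPI replicate 2) and 2 to 4 between 16 and 24 HPI, with medians of -0.00772 to 0.14 at 1 HPI, 0.23 to 0.33 at 16 HPI and -0.11 to -0.0176 between 16 and 24 HPI. Over all genes, leaving out 1 library passed 3.26 to 5.88% at 8 HPI, 16.4 to 19.8% at 16 HPI, 9.01 to 11.3% at 24 HPI and 4.48 to 9.41% between 16 and 24 HPI. The median of the members at 1 HPI was 0.0329 in the compared groups alone, and that between 16 and 24 HPI was -0.12 over 1 CPM in all libraries. Members differing between replicate numbers were 7 with DESeq2 and 7 over 1 CPM in all libraries, where 54.3% and 61.4% of all genes differed. Directions near 0 reversed for Ccnd1 at 16 HPI (-0.19 to 0.16 when 1 library was left out, above 0 without control replicate 3 or 16 HPI replicate 1, and 0.0746 without the libraries of number 3), Rb1 at 16 HPI (-0.0849 to 0.0421, above 0 without control replicate 3 or 16 HPI replicate 2) and Tyms at 24 HPI (-0.0202 to 0.402, below 0 without 24 HPI replicate 3, and -0.12 without the libraries of number 3). The cause was not tested. Medians near 0 also changed sign at 3 HPI (-0.00145 without control replicate 1) and at 8 HPI, where they ran from -0.0435 without control replicate 1 to 0.117 without the libraries of number 3. Of the other recomputed values, 522 kept their side of the threshold or, for counts and medians, stayed close to the value reported, and 94 were no longer past the threshold. The 94 come only from calls that passed in the main fit. The 522 also hold counts, medians and genes that had not passed, such as Rb1 and Ccnd1. The 2 numbers together therefore give no share of calls lost. Depth limits the members under about 10 counts, whose values rest on a few reads in each library.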
